A study of Homo sapiens with 6 samples.

Results

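Matricellular genes and YAP-induced genes were examined in Hep3B, an established human hepatocellular carcinoma cell line. The members were 10 genes chosen by name: the thrombospondins THBS1, THBS2, THBS3 and THBS4, the CCN family genes CTGF and CYR61, and ANKRD1, SPARC, SPP1 and TNC. THBS1 was chosen because of its large fall in the comparison described here, so its values are given as a description with no test. Of these 10 genes, 9 had a row among the 29908 genes measured. TNC, the gene of tenascin C, had no row, so its level was not analysed and only its promoter window was searched.

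Matricellular proteins are secreted into the extracellular matrix, where they bind cell surface receptors, growth factors and matrix fibres rather than serving as structural fibres themselves. Thrombospondins, CCN proteins, SPARC (osteonectin), osteopontin and tenascins belong to this class. YAP is the transcriptional coactivator at the end of the Hippo pathway. It binds DNA through TEAD transcription factors, and CTGF, CYR61 and ANKRD1 are its most widely used target genes. ANKRD1 encodes an ankyrin repeat protein of the nucleus and the muscle sarcomere and is not a secreted protein, so the name of secreted genes covers the members other than ANKRD1.

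The Hep3B-KD cells were infected with a lentivirus that expresses a short hairpin RNA against DAGLA. This gene encodes diacylglycerol lipase alpha, which makes the endocannabinoid 2-arachidonoylglycerol. The Hep3B-Con cells were infected with a control lentivirus, called shControl in the sample titles and an empty vector in the design text. Both groups were infected at a multiplicity of infection of 5, selected with puromycin and grown in medium with fetal bovine serum, and both are stably transduced populations of 1 cell line with 1 hairpin. Each group had 3 libraries, which the design text calls biological replicates without saying what separated them, so p-values measure the spread between these libraries. Values are FPKM, which count reads relative to gene length and library size. Read numbers were recovered from the FPKM values and gene lengths, and came to 15861039 to 17572714 reads in genes per library. The comparison asks which of these genes differed between cells with and without the DAGLA hairpin.

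DAGLA itself stood at 9.28 ± 0.228 FPKM (SD, n = 3) in Hep3B-Con and 4.62 ± 0.164 FPKM (SD, n = 3) in Hep3B-KD, a log2 fold change of -0.99 (limma, SE 0.0442, adjusted p = 4.902e-06). The labelled cell type was checked against its markers. The summed FPKM of 9 hepatocyte genes was 2584 to 2633 in Hep3B-Con and 4098 to 4115 in Hep3B-KD. ALB, the albumin gene, supplied most of this sum, with a mean of 2042 and 3315 FPKM. Not all of these genes rose, since FGB and HNF4A fell. Over all 14147 genes tested the median log2 fold change was 0.11. In these bulk libraries, fewer cells that express a gene and less RNA of it per cell cannot be told apart.

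Sequences are shown first for the promoters on which the YAP question bears. Each window, from the RefSeq promoter table of build GRCh38.p14, runs from 250 bases before to 50 bases after the start of the gene on the strand of the gene. Capitals mark GGAATG or its reverse complement, the core motif of TEAD factors, searched on both strands. The CTGF window (chr6:131951323-131951622, minus strand) held 3 matches, beginning at positions -169, -104 and -95 from the start site. The ANKRD1 window (chr10:90921038-90921337, minus strand) held 2 matches, at positions -220 and -128. The THBS1 window (chr15:39580829-39581128, plus strand) held 1 match, at position -46. The THBS2 window (chr6:169253797-169254096, minus strand), also shown, held 2 matches, at positions -103 and -91. THBS2 had only 8 to 21 reads per library, below the minimum of 0.5 FPKM for the test. Whether the matches bear on the level of any of these genes was not tested.
CTGF promoter: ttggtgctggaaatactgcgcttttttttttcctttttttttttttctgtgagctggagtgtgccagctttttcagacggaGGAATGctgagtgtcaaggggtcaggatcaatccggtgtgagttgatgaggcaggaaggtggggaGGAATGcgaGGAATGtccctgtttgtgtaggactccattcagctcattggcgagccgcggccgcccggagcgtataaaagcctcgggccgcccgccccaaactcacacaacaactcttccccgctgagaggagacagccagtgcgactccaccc
ANKRD1 promoter: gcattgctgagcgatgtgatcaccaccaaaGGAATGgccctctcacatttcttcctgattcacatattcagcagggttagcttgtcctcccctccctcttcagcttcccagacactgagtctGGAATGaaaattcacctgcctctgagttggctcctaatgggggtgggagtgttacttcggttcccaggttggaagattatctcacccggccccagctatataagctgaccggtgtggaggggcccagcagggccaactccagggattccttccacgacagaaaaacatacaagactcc
THBS1 promoter: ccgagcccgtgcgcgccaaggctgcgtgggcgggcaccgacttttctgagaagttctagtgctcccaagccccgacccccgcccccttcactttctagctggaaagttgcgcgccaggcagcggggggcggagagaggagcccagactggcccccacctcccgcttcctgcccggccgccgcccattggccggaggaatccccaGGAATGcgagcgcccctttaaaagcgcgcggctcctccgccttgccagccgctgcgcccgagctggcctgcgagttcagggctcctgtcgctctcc
THBS2 promoter: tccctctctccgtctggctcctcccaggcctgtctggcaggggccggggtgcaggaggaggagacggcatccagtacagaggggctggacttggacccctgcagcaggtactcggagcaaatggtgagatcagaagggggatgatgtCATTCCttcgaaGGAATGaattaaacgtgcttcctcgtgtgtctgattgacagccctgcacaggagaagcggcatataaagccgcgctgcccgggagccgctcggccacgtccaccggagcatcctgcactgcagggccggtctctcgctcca

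Of all 35116 promoter windows of this length, 14.03% held at least 1 such match, 1.373% at least 2 and 0.1281% at least 3. The CTGF window was thus 1 of 45 with 3 or more. SPARC held 1 match, on the reverse strand at position -17. THBS3 and THBS4, with 2 windows each, and SPP1 and TNC held 0. The table had no window for CYR61. The AP-1 motif TGANTCA was found once among the members, in the ANKRD1 window at position -195, where it overlaps no GGAATG match, and 7.709% of all windows held at least 1. The CArG box was found in 0 member windows and in 1.293% of all windows. Of 19 other YAP target genes, 14 had at least 1 window, and 7 of these genes had a window with GGAATG. This counts genes, whereas the shares above count windows. A match is a description of the letters in these windows and does not show that a factor binds there.

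**Figure D1:**
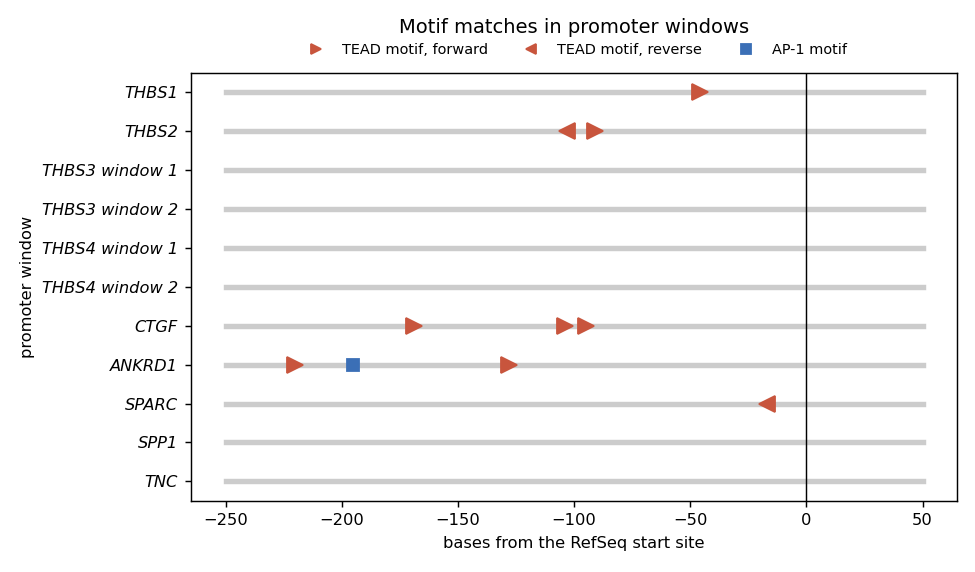
Positions of motif matches in the promoter windows of the members. The horizontal axis is the distance from the RefSeq start site in bases, triangles are GGAATG matches pointing along their strand, and the square is the AP-1 match. The 3 CTGF matches and the 2 ANKRD1 matches lie before the start site, and the windows of THBS3, THBS4, SPP1 and TNC are empty.

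The target sequence of the hairpin is shown because a hairpin can act on genes other than its target through the seed of its guide strand, bases 2 to 8, which are in capitals in the guide. The target lies at chr11:61740504-61740522 on the plus strand of GRCh38 (GENCODE 29), in the coding part of exon 18 of 20. The capitals in the THBS2 site are the letters that pair with the seed.
DAGLA target: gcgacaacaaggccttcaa
Guide strand: tTGAAGGCcttgttgtcgc
THBS2 site: caaacccaagtGCCTTCAgaggataaatat

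Among the 9 members measured, 1 held the seed match GCCTTCA in its 3′ UTR, THBS2, at position 163 of its 2042 bases. Of 11188 tested genes with a 3′ UTR of at least 50 bases, 14.55% held it. The members with lower values in Hep3B-KD described next held none in the longest 3′ UTR annotated for them. Most tested genes likewise held none. Only this match was searched, and an effect of the hairpin on genes other than DAGLA was not tested.

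THBS1 encodes thrombospondin-1, a large trimeric glycoprotein that activates latent TGF-beta and inhibits new vessel growth. The gene (ENSG00000137801, chr15:39581079-39599466, plus strand, GRCh38) had 174, 174 and 175 FPKM in the Hep3B-Con libraries and 52.9, 52.9 and 51.8 FPKM in the Hep3B-KD libraries. The groups lay far apart, with almost no spread within either. The means were 174 ± 0.677 and 52.5 ± 0.643 FPKM (SD, n = 3), a 3.32-fold lower level. The log2 fold change was -1.73 (SE 0.0169), or -1.84 relative to the median of all genes. The reads behind these values numbered 26712 to 27997 per Hep3B-Con library and 7684 to 7869 per Hep3B-KD library. THBS1 took 0.159% to 0.160% of all recovered reads in Hep3B-Con and 0.0474% to 0.0484% in Hep3B-KD. It ranked 147th by level in Hep3B-Con and 138th by size of fall among the 14147 genes.

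The spread of THBS1 between Hep3B-Con libraries had a coefficient of variation of 0.388%, against 0.603% from counting alone. In Hep3B-KD it was 1.22%, against 1.13% from counting. For this gene the Hep3B-Con libraries differed by no more than read sampling gives. This precision holds for these libraries and says nothing of other cultures.

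An intron of THBS1 gave a further reading at the same locus. This reading is tied to the choice of THBS1 for its fall, so it is described with no test. AC037198.1 (ENSG00000276107) is a sense intronic RNA of 733 bases at chr15:39586561-39587293. It lies on the same strand, between exons 7 and 8 of the 22 exons of THBS1, and shares 0 exon bases with THBS1. It had 56, 66 and 100 reads in Hep3B-Con and 5, 7 and 15 reads in Hep3B-KD. Each Hep3B-KD library lay below each Hep3B-Con library, as held for 26.4% of all genes tested. Its level was 5.91 ± 2.02 FPKM in Hep3B-Con and 0.753 ± 0.424 FPKM in Hep3B-KD (SD, n = 3), 7.85-fold lower. In percent of the THBS1 level it stood at 2.50% to 4.68% in Hep3B-Con and at 0.813% to 2.38% in Hep3B-KD. The closest libraries, at 2.50% and 2.38%, rest on 56 and 15 reads. Read numbers this small do not resolve that gap, and a change in the share was not tested. FSIP1, which lies on the opposite strand and shares 448 exon bases with THBS1, had only 0.107 and 0.0830 FPKM. Whether the counting used strand is not given in the sources used here, so reads of overlapping genes on opposite strands cannot be told apart.

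THBS4 encodes the pentameric thrombospondin-4 of tendon, muscle and vessel walls. The gene (ENSG00000113296, chr5:79991311-80083287, plus strand) had 8.09, 8.01 and 9.24 FPKM in Hep3B-Con and 5.28, 4.84 and 4.76 FPKM in Hep3B-KD. No library of one group reached the range of the other. THBS4 fell from 8.45 ± 0.686 to 4.96 ± 0.281 FPKM (SD, n = 3), a 1.70-fold difference, with a log2 fold change of -0.75 (limma, SE 0.0712, adjusted p = 0.000124). It fell by 0.86 on the log2 scale relative to the median of all genes. An antisense gene that shares 132 exon bases with it, CTD-2201I18.1, had 0.0715 and 0.0831 FPKM. AC112184.1, a pseudogene inside THBS4 that shares 0 exon bases with it, had 0.184 ± 0.184 and 0.781 ± 0.836 FPKM (SD, n = 3).

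THBS3 encodes thrombospondin-3, another pentamer, known from developing cartilage and bone. The gene (ENSG00000169231, chr1:155195588-155209051, minus strand) had 0.505, 0.236 and 0.429 FPKM in Hep3B-Con and 0.641, 0.808 and 0.743 FPKM in Hep3B-KD. These values rest on 41, 19 and 33 reads and on 47, 60 and 57 reads. The Hep3B-KD libraries lay above the Hep3B-Con libraries, on the side opposite to THBS1 and THBS4. The log2 fold change was 0.80 (limma, SE 0.295, adjusted p = 0.05253) and did not pass the threshold of 0.05. THBS3 entered the test only through Hep3B-KD, since its mean was 0.390 FPKM in Hep3B-Con and 0.731 FPKM in Hep3B-KD, so its direction was favoured by the filter. The call turned on the processing: it passed in 5 of the 16 alternatives in which THBS3 was tested, and without Hep3B-Con replicate 1 the adjusted p from limma was 0.04511. MTX1, on the opposite strand and sharing 146 exon bases with THBS3, had 11.2 ± 0.0286 and 8.19 ± 0.262 FPKM (SD, n = 3), a difference on the other side. AC234582.1, an antisense gene that shares 1027 exon bases with THBS3, had 0.0942 and 0.0828 FPKM.

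THBS2 encodes thrombospondin-2, a trimer like thrombospondin-1. The gene (ENSG00000186340, chr6:169215780-169254044, minus strand) had 8, 15 and 11 reads in Hep3B-Con and 21, 20 and 21 reads in Hep3B-KD. As FPKM these were 0.0710, 0.135 and 0.103 against 0.206, 0.194 and 0.197. The groups did not overlap, but the level was below the minimum of 0.5 FPKM for the test. In the fit without that minimum the log2 fold change was 0.57 (limma, adjusted p = 0.163). The antisense gene BX322234.1, which shares 0 exon bases with THBS2, had 0.521 ± 0.402 and 0.652 ± 0.180 FPKM (SD, n = 3).

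The thrombospondins among the members were also read as shares of their sum. COMP, a further thrombospondin at a mean of 0.539 FPKM in Hep3B-Con and 0.0734 FPKM in Hep3B-KD, is not in that sum. THBS1 made up 94.7% to 95.4% of the summed FPKM of THBS1 to THBS4 in Hep3B-Con and 89.6% to 90.1% in Hep3B-KD. THBS4 accounted for 4.39% to 4.99% and 8.24% to 8.95%, and THBS3 for 0.130% to 0.276% and 1.09% to 1.38%. THBS2 stayed under 1% with 0.0389% to 0.0737% and 0.331% to 0.350%. THBS1 thus remained the leading thrombospondin transcript in every library. These shares contain THBS1 and carry no test.

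**Figure D2:**
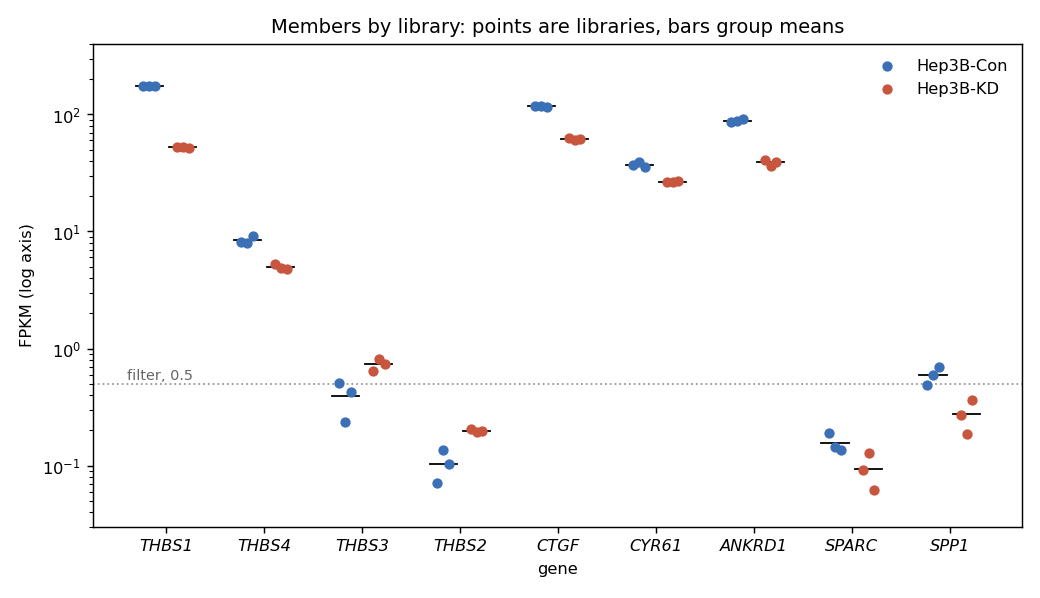
FPKM of the 9 members measured, on a log axis. Points are the 6 libraries, bars the group means and the dotted line the minimum of 0.5 FPKM for the test. THBS1 goes from 174 to 52.5 FPKM, while THBS2 and THBS3 are the genes whose Hep3B-KD points lie above their Hep3B-Con points.

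CTGF (CCN2 in current naming) encodes connective tissue growth factor, a CCN protein that binds integrins and growth factors and is known for its part in fibrosis. The gene (ENSG00000118523, chr6:131948176-131951373, minus strand) had 117, 118 and 116 FPKM in Hep3B-Con and 62.4, 60.1 and 62.0 FPKM in Hep3B-KD. The groups were well separated. CTGF fell from 117 ± 1.32 to 61.5 ± 1.23 FPKM (SD, n = 3), 1.90-fold, with a log2 fold change of -0.93 (limma, SE 0.0212, adjusted p = 3.789e-07). The reads numbered 4497 to 4826 in Hep3B-Con and 2257 to 2406 in Hep3B-KD.

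CYR61 (CCN1 in current naming) encodes a second CCN protein, an immediate early gene product that acts through integrins in adhesion and wound healing. The gene (ENSG00000142871, chr1:85580761-85583962, plus strand) had 37.2, 39.0 and 35.7 FPKM in Hep3B-Con and 26.6, 26.6 and 27.0 FPKM in Hep3B-KD. The Hep3B-KD libraries were all lower than the Hep3B-Con libraries. CYR61 fell from 37.3 ± 1.68 to 26.7 ± 0.215 FPKM (SD, n = 3), 1.40-fold, with a log2 fold change of -0.48 (limma, SE 0.0355, adjusted p = 4.066e-05). This was the smallest change among the members that passed the test.

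ANKRD1 (ENSG00000148677, chr10:90912096-90921276, minus strand) had 86.2, 87.1 and 90.6 FPKM in Hep3B-Con and 41.0, 36.5 and 39.3 FPKM in Hep3B-KD. The lowest Hep3B-Con value was above every Hep3B-KD value by a wide margin. ANKRD1 fell from 88.0 ± 2.34 to 38.9 ± 2.28 FPKM (SD, n = 3), 2.26-fold, with a log2 fold change of -1.18 (limma, SE 0.0450, adjusted p = 2.733e-06). It was the member with the largest fall among those tested.

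Ratios taken within each library set the 3 YAP target genes among the members against each other. The ratio of CTGF to CYR61 was 3.14 ± 0.108 in Hep3B-Con and 2.30 ± 0.0431 in Hep3B-KD (SD, n = 3). The ratio of ANKRD1 to CYR61 was 2.36 ± 0.159 and 1.46 ± 0.0846. The ratio of CTGF to ANKRD1 went the other way, from 1.33 ± 0.0487 to 1.58 ± 0.0626. The groups did not overlap in any of these 3 ratios, each with p = 0.1 in a two-sided exact permutation test, the smallest that 3 against 3 libraries allow. The ratio of CTGF to ANKRD1 follows from the others, and all 3 restate the unequal falls given above. No share over other gene pairs was taken. THBS1 stood above CTGF in every Hep3B-Con library and below it in every Hep3B-KD library, with ratios of 1.49 ± 0.0224 and 0.855 ± 0.0232 (SD, n = 3, no test).

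**Figure D3:**
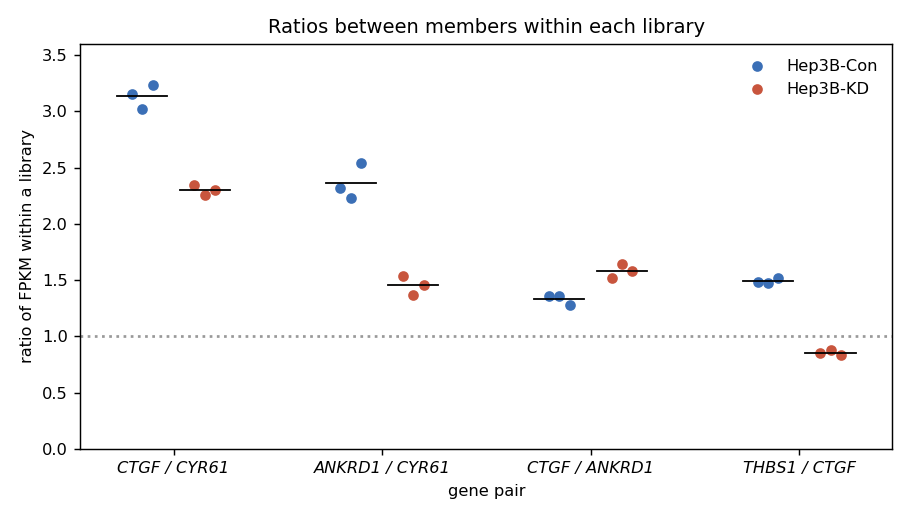
Ratios of FPKM between pairs of members within each library. Points are libraries and bars group means, and the dotted line marks a ratio of 1. The ratio of THBS1 to CTGF crosses the line, from 1.49 in Hep3B-Con to 0.855 in Hep3B-KD.

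SPP1 encodes osteopontin, a secreted phosphoprotein that binds integrins and CD44. The gene (ENSG00000118785, chr4:87975650-87983426, plus strand) had 20, 24 and 27 reads in Hep3B-Con and 10, 7 and 14 reads in Hep3B-KD, or 0.490, 0.595 and 0.699 FPKM against 0.272, 0.188 and 0.364 FPKM. The groups did not overlap, and the mean over 6 libraries was below the minimum. In the fit without it the log2 fold change was -0.91 (limma, adjusted p = 0.05774).

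SPARC, a collagen-binding matricellular protein, was close to the limit of detection. The gene (ENSG00000113140, chr5:151661096-151687165, minus strand) had 16, 12 and 11 reads in Hep3B-Con and 7, 10 and 5 reads in Hep3B-KD. The closest libraries of the groups were 1 read apart. In the fit without the minimum the log2 fold change was -0.41 (limma, adjusted p = 0.3394).

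Across the members, 6 of the 9 measured passed the minimum of 0.5 FPKM, and 5 of these were tested, THBS1 being left out. Of these 5 genes, 4 were lower at an adjusted p under 0.05 (limma), 0 were higher and 1, THBS3, did not pass. Among all genes tested 24% were lower and 36.3% higher at this threshold, 60.3% in all. With a change of at least 2-fold as well, 1 of the 5 was lower, ANKRD1, against 2.95% of all genes lower, 5.88% higher and 8.83% in all. The median log2 fold change of the 5 was -0.75, against 0.11 over all genes. The groups did not overlap for any of the 5, 4 of them lower and 1, THBS3, higher in Hep3B-KD. Such separation held for 67.2% of all genes tested, 26.4% lower and 40.8% higher. The groups were also apart for THBS1, which was chosen for its fall, and for THBS2, SPP1 and SPARC, which were below the minimum. These genes are therefore not set against that share. For each of the 8 members other than THBS1 the two-sided exact permutation test gave p = 0.1, its smallest value. The summed FPKM of the members was 426 ± 1.99 in Hep3B-Con and 186 ± 3.58 in Hep3B-KD (SD, n = 3). This sum contains THBS1, at a mean of 174 and 52.5 FPKM, and carries no test.

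**Figure D4:**
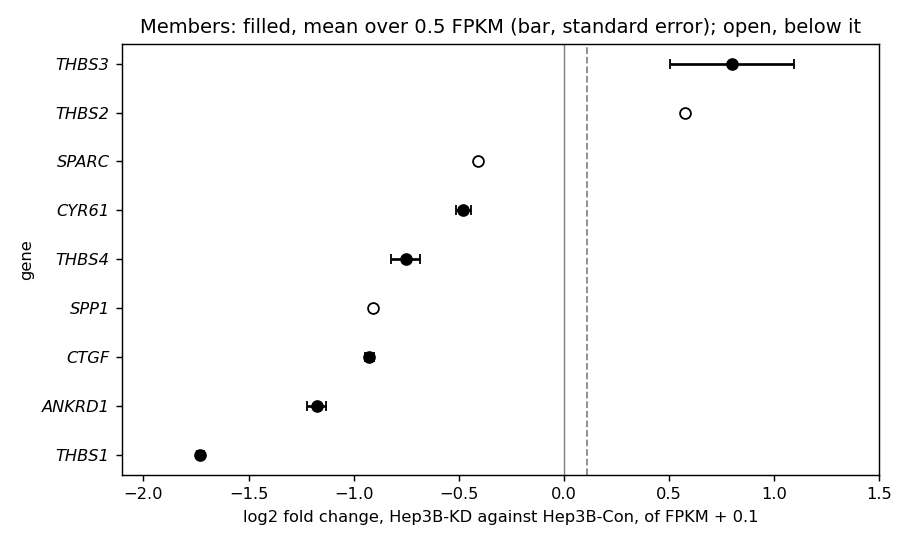
Log2 fold change of FPKM + 0.1 for the 9 members. Filled points with standard errors are genes with a mean above 0.5 FPKM, open points are below it, and the dashed line is the median of all genes, 0.11. THBS1 lies lowest at -1.73, and THBS3 at 0.80 has the widest bar.

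The order of the levels changed little between the groups. In Hep3B-Con it ran THBS1, CTGF, ANKRD1, CYR61, THBS4, SPP1, THBS3, SPARC and THBS2, with overlapping ranges only for the neighbours SPP1 and THBS3. In Hep3B-KD it ran CTGF, THBS1, ANKRD1, CYR61, THBS4, THBS3, SPP1, THBS2 and SPARC, with overlapping ranges only for SPP1 and THBS2. The leading 5 genes were thus the same in both groups, with THBS1 and CTGF exchanged.

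Likeness to THBS1 was measured as the root mean square difference in log2(FPKM + 0.1) from the Hep3B-Con mean, over 6 libraries and the 2352 genes that averaged 20 FPKM or more. The 5 nearest genes were SLC7A1, CDK2AP2, SF3B5, SLC7A5 and IER3, at differences of 0.0397, 0.0456, 0.0564, 0.0626 and 0.0666. SLC7A1 and SLC7A5 encode amino acid transporters, and their means went from 39.7 to 12.2 FPKM and from 174 to 54.3 FPKM. SF3B5, a subunit of the splicing factor SF3B, went from 156 to 49.2 FPKM, CDK2AP2 from 79.1 to 24.4 FPKM and IER3, an immediate early gene, from 103 to 33.1 FPKM. None of these is a member, but of the other members only ANKRD1, CTGF and CYR61 averaged 20 FPKM or more and could appear. These YAP target genes were farther from THBS1: ANKRD1 in place 57, CTGF in place 104 and CYR61 in place 357. This ordering mostly restates the size of the fall and carries no test.

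Among 21 other matricellular genes, 13 had a row, 5 passed the minimum, 2 fell and 0 rose, against 24% and 36.3% of all genes. FSTL1, a SPARC family member, fell from 1.20 ± 0.103 to 0.631 ± 0.0416 FPKM (log2 fold change -0.83, limma adjusted p = 0.002608). TGFBI, a secreted integrin ligand induced by TGF-beta, fell from 81.5 ± 4.02 to 70.5 ± 1.21 FPKM (log2 fold change -0.21, limma adjusted p = 0.002594). SMOC1, SPOCK2 and SPOCK3 did not pass the test, and the median of the 5 was -0.01. COMP and TNN were picked, after their values were seen, from the 8 genes with a row below the minimum. Their values are therefore a description with no test. COMP, the fifth thrombospondin, had 15 to 45 reads in Hep3B-Con and 3 to 5 in Hep3B-KD. TNN, a tenascin, had 0 to 1 reads in Hep3B-Con and 5 to 10 in Hep3B-KD.

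Receptors of the members were measured in the same libraries, and all 20 listed had a row. Of the 10 tested, 4 were lower and 6 higher in Hep3B-KD, where 60.3% of all genes were called, 24% lower and 36.3% higher. The median log2 fold change of the 10 was 0.13. ITGB1, the integrin beta-1 chain shared by many receptors of thrombospondins and CCN proteins, fell from 161 ± 3.08 to 57.3 ± 1.21 FPKM (SD, n = 3; log2 fold change -1.48, limma adjusted p = 1.127e-07). ITGAV, the alpha-V chain that binds osteopontin and CCN proteins, rose from 30.1 ± 1.08 to 55.1 ± 1.72 FPKM (log2 fold change 0.87, limma adjusted p = 3.55e-06). SDC1, the proteoglycan syndecan-1, rose from 19.8 to 30.7 FPKM (log2 fold change 0.63, limma adjusted p = 3.808e-05). CD47, the receptor for the C-terminal part of thrombospondin-1, fell from 8.18 to 6.26 FPKM (log2 fold change -0.38, limma adjusted p = 0.0001415). The changes of ITGA5 and ITGA6 were 0.03 and 0.02 relative to the median of all genes, and the count of higher receptors was 4 when the libraries were centred on that median. It was also 4 with eBayes without the trend and with voom on the recovered reads, and 4 to 6 with 1 library left out. Without the minimum, where more receptors are tested, 6 were lower and 5 higher. CD44, the other main osteopontin receptor, had 0 to 1 reads per library.

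Among 19 other YAP target genes all had a row and 16 were tested, of which 9 fell, 5 rose and 2, F3 and LATS2, did not pass. Over all genes 24% were lower and 36.3% higher. The median log2 fold change of the list was -0.21. TGFB2, the ligand TGF-beta 2, fell from 11.4 ± 0.535 to 4.11 ± 0.246 FPKM (log2 fold change -1.45, limma adjusted p = 3.336e-06). FJX1 fell from 1.41 to 0.496 FPKM (log2 fold change -1.40, limma adjusted p = 0.003619), and NUAK2, a kinase gene, from 15.7 to 7.24 FPKM (log2 fold change -1.11, limma adjusted p = 2.274e-06). NT5E, which encodes the ectonucleotidase CD73, rose from 8.37 ± 0.279 to 24.8 ± 0.679 FPKM (log2 fold change 1.56, limma adjusted p = 4.511e-07). FJX1 passed the minimum of 0.5 FPKM only through its Hep3B-Con values, so its direction was favoured by the filter. At a change of at least 2-fold 3 of these genes were lower and 2 higher, against 2.95% and 5.88% of all genes.

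**Figure D5:**
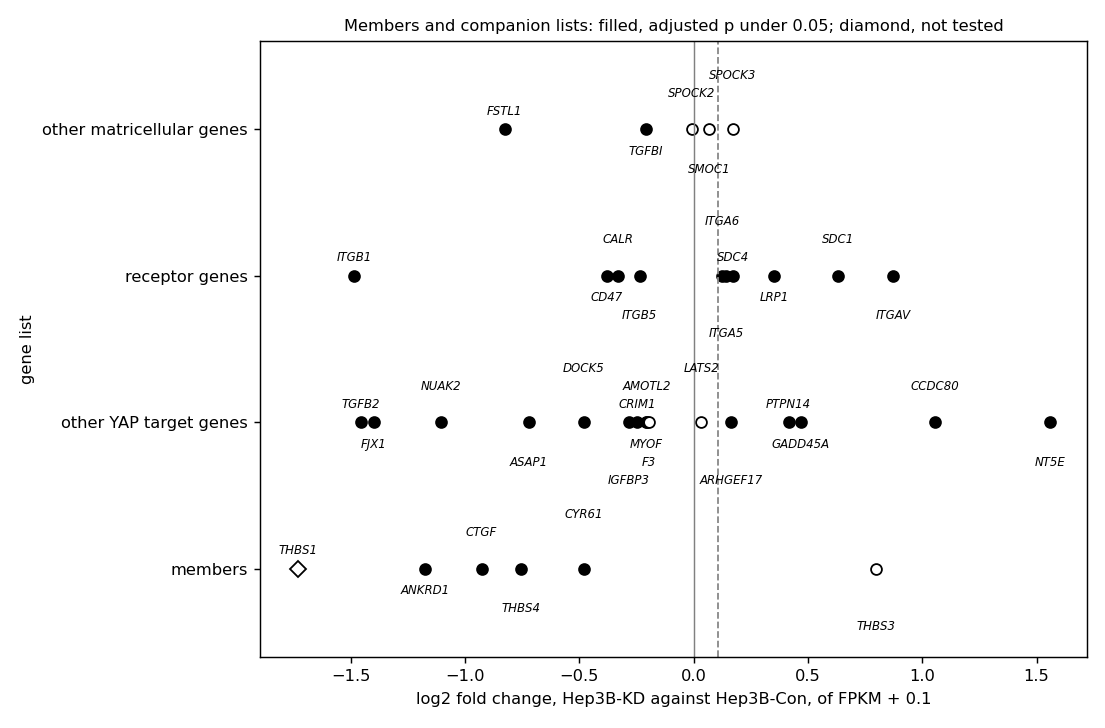
Log2 fold change of FPKM + 0.1 for the tested genes of each list. Filled circles passed an adjusted p under 0.05 (limma), open circles did not, the diamond is THBS1, which was not tested, and the dashed line is the median of all genes, 0.11. Receptors and other YAP target genes lie on both sides of the line, from ITGB1 at -1.48 to NT5E at 1.56.

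Matrix genes are also markers of fibroblasts and stellate cells, so markers of other cell types were read beside the members. Of 7 fibroblast and stellate genes, 4 were tested and all 4 fell (COL1A1, LUM, PDGFRA and PDGFRB), against 24% of all genes. COL1A1, at 0.745 and 0.271 FPKM, passed the minimum only through its Hep3B-Con values, so its direction was favoured by the filter. The 7 genes had a summed FPKM of 11.6 to 13.2 in Hep3B-Con and 7.17 to 7.89 in Hep3B-KD, and COL3A1 and DCN were below 0.1 FPKM. Of 4 endothelial genes 0 were tested, with a summed FPKM of 0.194 to 0.217 and 0.278 to 0.385, and CDH5, VWF and KDR were below 0.1 FPKM. Of 4 immune genes 2 had a row and 1, CD14, was tested and did not pass, with a summed FPKM of 0.767 to 1.32 and 0.799 to 0.972. Of the 9 hepatocyte genes 7 rose and 2 fell, against 36.3% and 24% of all genes. The 2 that fell were FGB, from 19.5 to 9.96 FPKM, and HNF4A, from 56.2 to 43.9 FPKM. The part of these markers in the members' values was not tested.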

How the data were processed

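RNA from 3 Hep3B-Con and 3 Hep3B-KD libraries was sequenced, and samples were grouped by the labels. FPKM values, in which the authors scaled reads by gene length and library size, were deposited for 29908 genes in 6 columns. Per the labels' processing notes TopHat2 2.0.12, Bowtie2 2.0.6 and build GRCh37 were used. All identifiers, however, were found in GENCODE 29, an annotation of GRCh38 that gives the gene coordinates here, and with its exon lengths every FPKM value came out within 0.01 of a whole read. Limits set by read numbers cover counting error only.

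Genes averaging 0.5 FPKM or more (14147, the row with the highest mean standing for each of the symbols repeated over 382 rows) were tested as log2(FPKM + 0.1), a scale that understates the change of low genes, with limma 3.58.1 (lmFit, eBayes with trend) in R 4.3.3, without a replicate block and with Benjamini-Hochberg adjustment across these genes. The fit was tested on simulated data. Alternatives were other filters, pseudocounts, scalings and variance models, a replicate block, voom on the recovered reads and leaving out each library. Python 3.11.15, numpy 2.4.6, pandas 2.3.3, scipy 1.17.1 and matplotlib 3.10.9 were used.

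The members and gene lists were chosen with earlier results of these data known. Names were given to all members, to the 4 called genes of each list with the largest change, to the 5 genes most like THBS1, to genes with a row that overlap a member and to DAGLA. Outside this rule, COMP, TNN, ITGA5, ITGA6, CD44, the tested list genes that did not pass and single markers were named after their values were seen. The hairpin target was read from the study's supplementary tables.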

Additional observations from a re-analysis of the deposited data

How the results depend on the processing

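THBS4, CTGF, CYR61 and ANKRD1 stayed lower and past the threshold in every alternative run, with log2 fold changes of -0.87 to -0.66, -1.03 to -0.77, -0.58 to -0.39 and -1.28 to -1.05. THBS1 ranged from -1.83 to -1.56. THBS3, which passed the minimum only through Hep3B-KD, was called higher, which raised the count of higher members from 0 to 1, with a pseudocount of 1 (limma adjusted p = 0.03649), libraries rescaled to the same FPKM sum (0.04696), eBayes without the trend (0.03381), voom on the recovered reads (0.007674) and without Hep3B-Con replicate 1 (0.04511). Leaving out 1 library gave 0 to 1 higher members, and the limma adjusted p of THBS3 ranged from 0.007674 to 0.205 over the 16 alternatives that tested it. With a mean of at least 1 FPKM it was not tested. The cause was not tested. Its reads, 19 to 60 per library, limit the precision, as do those of THBS2, SPP1 and SPARC.

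Among the other matricellular genes, 1 was higher without a filter, where more genes are tested, and 1 was lower with a mean of at least 1 FPKM, where fewer are. Over all genes at 2-fold or more, a pseudocount of 1, which shrinks the folds of low genes, left 246 lower and 249 higher against 417 and 832, and quantile normalization gave 469 higher. Centring on the median log2 ratio moved the split of all calls from 3392 lower and 5137 higher to 4308 and 4068, quantile normalization to 3911 and 4278, and voom to 4416 and 4377.

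Same-numbered libraries did not deviate together (correlations of -0.00797, -0.0645 and -0.000907), and the other pairs gave -0.0429 to 0.0508. These values give no sign that the numbers pair the samples, but they cannot exclude it. With the replicate block 3159 genes were lower and 4783 higher, the receptors called higher went from 6 to 5, and THBS3 had a limma adjusted p of 0.1036.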
